A study of Zea mays with 4 samples.

Results

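The carbon fixation genes described here are pep1, Ppdk1, ME1, rbcS and rca1 of maize, which encode enzymes of C4 photosynthesis and of the Calvin cycle. They were chosen by gene name: every probe set that the annotation of the array platform assigns to 1 of these 5 genes was taken, whatever its values. This gave 9 probe sets among 17621, and 5 genes among the 1108 that the annotation names. A further gene, PDK1 (LOC541677), shares only a symbol with Ppdk1, encodes a kinase and was left out.

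Total RNA came from 2 inbred lines, F98902 (2 samples) and Cm489 (2 samples), and each sample was hybridised to 1 Affymetrix maize genome array. All 4 samples were aerial material of soil-grown plants at the flower development stage, under the same lighting and humidity notes, and no treatment or transgene is recorded for either line. The labels do not name the organ, nor whether 2 samples of 1 line are separate plants. Whether the spread within a line is technical, or between plants or tissues, therefore cannot be told from them. Each sample title carries a pl code of its own, whose meaning the labels do not give. The series is about cell wall diversity in maize. The question asked of these genes is whether carbon fixation transcripts differed between the lines, and whether those of mesophyll and bundle sheath enzymes moved together.

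Maize leaves divide carbon fixation between cell types that lie next to each other. In mesophyll cells phosphoenolpyruvate carboxylase (pep1) fixes bicarbonate into oxaloacetate, and pyruvate, phosphate dikinase (Ppdk1) regenerates the phosphoenolpyruvate it needs. In bundle sheath chloroplasts NADP-malic enzyme (ME1) releases carbon dioxide from malate, and Rubisco, whose small subunit is encoded by rbcS, fixes it again in the Calvin cycle with the help of Rubisco activase (rca1), which frees blocked active sites.

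All values are log2 signals made by the authors with GCRMA, a method that removes background, scales the arrays to each other and combines the probes of a probe set. Probe sets without specific signal fall to a floor near 2 with little spread. Values under 4 were therefore read as giving no level. A probe set was tested between the lines when it reached 4 on at least 2 of the 4 arrays, which 7 of the 9 member probe sets and 4 of the 5 genes did. Differences are F98902 minus Cm489, so that a positive value means higher in F98902. Each comes with the moderated standard error (SE) and 95% interval of a limma fit across all 11242 tested probe sets, and with a p-value adjusted over all of these by the Benjamini-Hochberg method. In RNA from whole tissue, fewer cells of a type and less RNA per cell cannot be told apart.

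Signal was plain for Ppdk1, rbcS and ME1 on all 4 arrays, and at the floor on 3 arrays for pep1. For rca1 it was about 4 on 1 array of each line, and 9.73 in F98902 and 7.24 in Cm489 on the other. Of the 7 tested member probe sets, 0 passed an adjusted p of 0.05 in the limma fit, and 2 had an unadjusted p under 0.05. Over all tested probe sets 200, or 1.78%, passed, and 1183 had an unadjusted p under 0.05. The smallest differences that passed in this fit were 3.62 upward and -3.70 downward. For a single probe set the smallest two-sided p that an exact permutation of the 4 arrays allows is 0.333.

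**Figure D1:**
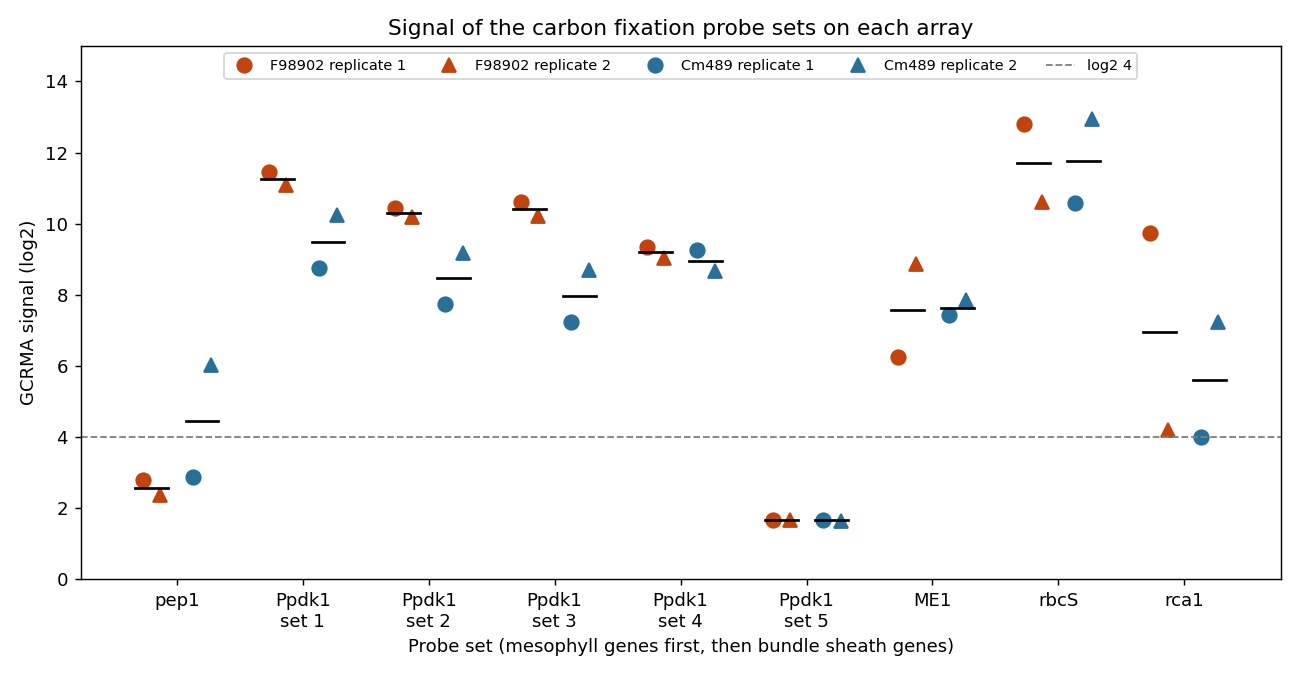
The log2 GCRMA signal (vertical axis) of each of the 9 member probe sets is shown for the F98902 arrays (orange) and the Cm489 arrays (blue), with circles for replicate 1, triangles for replicate 2 and black bars for line means; the dashed line marks log2 4. Ppdk1 sets 1 to 3 lie higher on both F98902 arrays than on both Cm489 arrays, whereas ME1, rbcS and rca1 overlap and pep1 exceeds 4 on 1 array only.

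Ppdk1 (LOC542759), the mesophyll dikinase gene, showed the only separation between the lines among the tested members. RefSeq lists it under both a C4 and a cytosolic PPDK name, and the locus is known to give a chloroplast and a cytosolic form from separate start sites. Its 5 probe sets are numbered here by falling mean signal. Set 1 had 11.45 and 11.08 in F98902, against 8.76 and 10.23 in Cm489. Both F98902 arrays lay above both Cm489 arrays, and the Cm489 arrays were the further apart. The difference was 1.77 (SE 0.66, 95% interval -0.06 to 3.60, limma adjusted p = 0.500), which is 3.41-fold on the linear scale.

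Sets 2 and 3 of Ppdk1 repeated this order of arrays. Set 2 had 10.44 and 10.18 in F98902, against 7.75 and 9.17 in Cm489, a difference of 1.85 (SE 0.64, 95% interval 0.08 to 3.63, limma adjusted p = 0.453). Set 3 had 10.61 and 10.21 in F98902, against 7.23 and 8.69 in Cm489, a difference of 2.45 (SE 0.66, 95% interval 0.62 to 4.27, limma adjusted p = 0.314). These are the 2 probe sets with an unadjusted p under 0.05, at 0.0440 and 0.0202. Sets 1 and 3, with set 5, were designed on 1 sequence entry, and sets 2 and 3 carry the suffix by which Affymetrix marks probes that also match other sequences, so the 3 sets are not independent measurements of the gene.

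The other Ppdk1 sets did not show the separation. Set 4 had 9.33 and 9.05 in F98902, against 9.27 and 8.66 in Cm489, so the arrays overlapped. Its difference was 0.23 (SE 0.46, 95% interval -1.04 to 1.49, limma adjusted p = 0.947), and -0.0822 without Cm489 replicate 2. Set 5 was at the floor on every array, between 1.65 and 1.67, and gives no level. Probe sets assigned to 1 gene thus disagreed here, with differences from 0.23 to 2.45 among the 4 that were tested.

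In total 3 of the 7 tested member probe sets, all of Ppdk1, lay higher on both F98902 arrays, against 18.1% of all tested probe sets. None of the 7 lay lower on both F98902 arrays, against 20.0% of all tested probe sets. Because the 3 sets belong to 1 gene and are not independent measurements, they count as 1 gene of 4. With 1 array left out the difference of Ppdk1 set 1 ran from 1.03, without Cm489 replicate 1, to 2.50 when Cm489 replicate 2 was omitted. Set 3 ran from 1.72 to 3.18 under the same omissions.

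**Figure D2:**
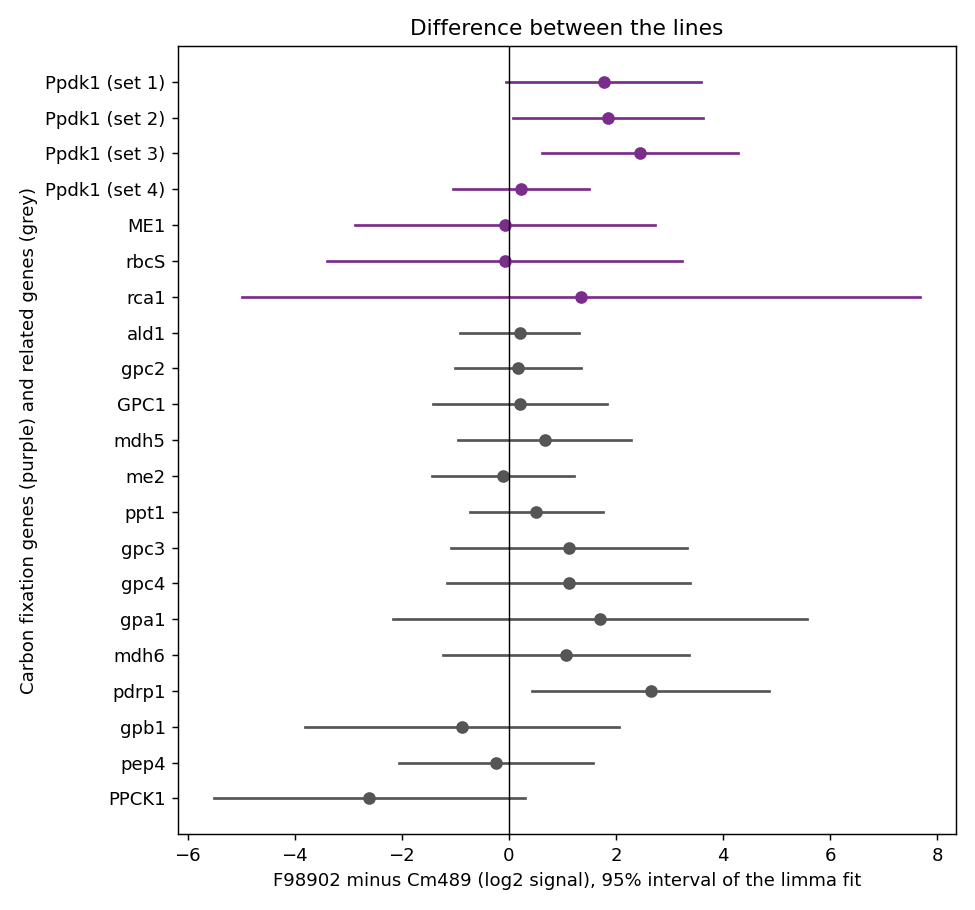
Points give F98902 minus Cm489 in log2 signal (horizontal axis) and bars the 95% interval of the limma fit, for the 7 tested member probe sets (purple) and for 1 probe set of each of 14 related genes (grey). The intervals of Ppdk1 sets 2 and 3 and of pdrp1 lie above 0, the interval of rca1 is the widest at -4.99 to 7.68, and no adjusted p passed.

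pep1 (LOC542372), for the carboxylase that opens the C4 cycle, had 2.79 and 2.37 in F98902, against 2.86 and 6.01 in Cm489. Cm489 replicate 2 was the only array with a value above 4. The gene has a single probe set, it was not tested, and no difference between the lines is given for it. RefSeq lists this locus under the C4 PEPC name, and C4 PEPC transcript is known to be abundant in maize leaf mesophyll. Values under 4 give no level, so whether its transcript followed that of the other mesophyll enzyme, Ppdk1, cannot be told from this probe set. A probe set at the floor does not show that the transcript was absent. Set 5 of Ppdk1 was also at the floor, while sets 1 to 4 were bright on all 4 arrays.

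ME1 (LOC542233), for the decarboxylating enzyme of the bundle sheath, had 6.25 and 8.88 in F98902, against 7.43 and 7.85 in Cm489. The Cm489 arrays lay between the F98902 arrays. The line means were 7.56 ± 1.86 in F98902 and 7.64 ± 0.30 in Cm489 (SD, n = 2 each), a difference of -0.08 (SE 1.01, 95% interval -2.88 to 2.73, limma adjusted p = 0.993). The sign of this difference rests on single arrays: it was 1.24 without F98902 replicate 1 and -1.39 when the other F98902 array was omitted, and 0.13 without Cm489 replicate 2.

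rbcS (LOC542212), for the small subunit of Rubisco, had 12.79 and 10.60 in F98902, against 10.59 and 12.95 in Cm489. Each line had 1 array near 13 and 1 near 10.6, so the lines overlapped almost completely. The means were 11.69 ± 1.55 in F98902 and 11.77 ± 1.67 in Cm489 (SD, n = 2 each), a difference of -0.08 (SE 1.20, 95% interval -3.39 to 3.23, limma adjusted p = 0.995). It was -1.26 without Cm489 replicate 1 and 1.10 when the other Cm489 array was omitted, and it was -1.18 and 1.02 when F98902 replicate 1 or 2 was omitted. The interval allows a large difference either way, so equal levels are not shown.

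rca1 (LOC541712), for Rubisco activase, had 9.73 and 4.19 in F98902, against 3.99 and 7.24 in Cm489. Each line again had a high and a low array, with the low ones at about the value below which no level is read. The means were 6.96 ± 3.91 in F98902 and 5.61 ± 2.30 in Cm489 (SD, n = 2 each), a difference of 1.35 (SE 2.29, 95% interval -4.99 to 7.68, limma adjusted p = 0.934). It was -1.42 without F98902 replicate 1 and 4.12 when the other F98902 array was omitted, and -0.28 without Cm489 replicate 1.

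The difference between the arrays of a line was thus larger than that between the lines for ME1, rbcS and rca1. Replicate 2 minus replicate 1 of rca1 was -5.54 in F98902 and 3.25 in Cm489. A difference at least as large was found in 1.02% of all tested probe sets in F98902 and 3.34% in Cm489. For rbcS it was -2.19 in F98902 and 2.36 in Cm489, which 12.5% and 7.41% of tested probe sets reached. For ME1 it was 2.63 in F98902 and 0.42 in Cm489, with 8.82% and 63.1% of tested probe sets at least as far apart. The median size over all tested probe sets was 0.73 in F98902 and 0.63 in Cm489. Over all probe sets F98902 replicate 2 correlated slightly more with Cm489 replicate 1 (r = 0.945) than with F98902 replicate 1 (r = 0.938). The Cm489 arrays correlated with each other at 0.952.

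Within F98902 these shifts ran opposite ways among the bundle sheath genes. F98902 replicate 1 was the brighter F98902 array for rbcS and rca1 and the dimmer one for ME1. In Cm489 replicate 2 was the brighter array for all 3 genes, by little for ME1. The order shown by rbcS and rca1, brighter on replicate 1 of F98902 and on replicate 2 of Cm489, was found in 5 of the 7 tested member probe sets and in 32.4% of all tested probe sets. The other members with it were Ppdk1 sets 1 to 3, which are not independent measurements and count as 1 gene. The 5 probe sets thus stand for rbcS, rca1 and Ppdk1 only. For Ppdk1 sets 1 to 3 the shift within F98902 was between -0.26 and -0.40, smaller than the median size of 0.73 over all tested probe sets. The replicate numbers only name the samples, and replicate 1 of one line has no recorded link to replicate 1 of the other.

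**Figure D3:**
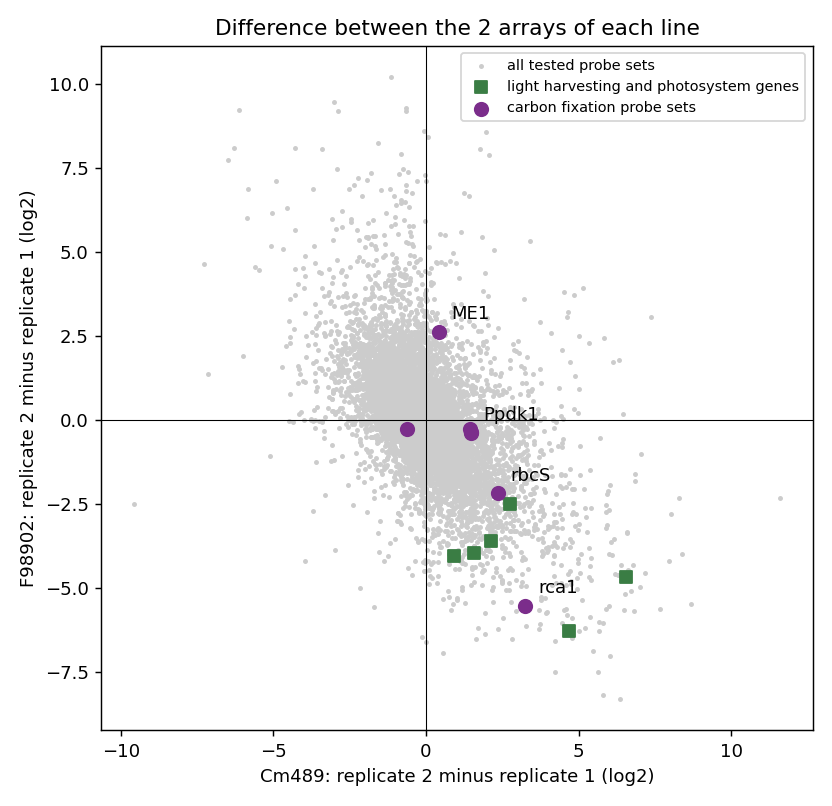
Replicate 2 minus replicate 1 in log2 signal is plotted for Cm489 (horizontal axis) and F98902 (vertical axis), for all 11242 tested probe sets (grey), 6 light harvesting and photosystem genes (green squares) and the 7 tested member probe sets (purple). rca1 (3.25 and -5.54) and rbcS (2.36 and -2.19) lie at the lower right with the light harvesting genes, and ME1 (0.42 and 2.63) lies above the horizontal zero line.

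A comparison of mesophyll with bundle sheath enzymes was made within each array. Each gene's best probe set was centred on its own mean over the 4 arrays, and the bundle sheath mean (ME1, rbcS, rca1) was subtracted from the mesophyll mean (pep1, Ppdk1). The index was -0.87 and 0.43 on the F98902 arrays, against 0.07 and 0.37 on the Cm489 arrays. The lines overlapped, and the difference of -0.44 was smaller than the SD between arrays of a line, 0.67. Its sign rested on single genes and arrays: it was 0.0326 without rca1 and 0.21 without F98902 replicate 1. Without pep1, which is mostly at the floor, the mesophyll side was Ppdk1 alone. The index was then 0.02 and 1.35 in F98902, against -0.42 and -0.96 in Cm489, a difference of 1.37. The sign thus turned, and both F98902 arrays lay above both Cm489 arrays, as for Ppdk1 itself. As the members were chosen with earlier results known, no test is given for the index.

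Among 14 other genes of the C4 cycle, the Calvin cycle and neighbouring carbon metabolism that the annotation names, all were tested, 10 were higher and 4 lower in F98902, and 0 passed in the limma fit. The median difference was 0.37, against -0.02 over all tested probe sets. Of the 14, 3 lay higher and 1 lower on both F98902 arrays, against 18.1% and 20.0% of all tested probe sets. Of the 14, 2 encode regulators of member enzymes. The gene pdrp1 (LOC732785), for the regulatory protein that switches PPDK off and on by reversible phosphorylation, had 11.53 and 9.55 in F98902, against 7.96 and 7.81 in Cm489. Both F98902 arrays were above both Cm489 arrays, as for Ppdk1 sets 1 to 3. The difference was 2.65 (SE 0.80, 95% interval 0.43 to 4.86, unadjusted p = 0.0292, limma adjusted p = 0.376).

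PPCK1 (LOC606483), for a kinase that phosphorylates PEPC, ran the other way, with 3.26 and 5.44 in F98902, against 6.11 and 7.82 in Cm489. Both F98902 arrays were below both Cm489 arrays, and 1 of them gives no level. The difference was -2.61 (SE 1.05, 95% interval -5.51 to 0.29, limma adjusted p = 0.546).

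A chloroplast malate dehydrogenase gene and further PEPC and malic enzyme genes overlapped between the lines. The gene mdh6 (LOC542374), named in maize for the chloroplast malate dehydrogenase that makes malate in the mesophyll, had 10.96 and 9.11 in F98902, against 8.47 and 9.46 in Cm489. The gene pep4 (LOC542393), a further PEPC gene, had 6.68 and 5.69 in F98902, against 5.87 and 6.99 in Cm489. The malic enzyme gene me2 (LOC542331) had 12.04 and 11.32 in F98902, against 11.63 and 11.96 in Cm489. These differences were 1.07, -0.24 and -0.11, and the transporter gene ppt1 (LOC100037776), for a plastid phosphoenolpyruvate translocator, differed by 0.52 with both F98902 arrays the higher.

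The chloroplast glyceraldehyde-phosphate dehydrogenase genes of the Calvin cycle varied within the lines much as rbcS and rca1 did. The gene gpa1 (LOC542368), for the A subunit, had 12.17 and 9.70 in F98902, against 7.77 and 10.68 in Cm489, a difference of 1.71 (SE 1.40, limma adjusted p = 0.826). The gene gpb1 (LOC542290), for the B subunit, had 9.02 and 6.45 in F98902, against 8.06 and 9.18 in Cm489, a difference of -0.88 (SE 1.06, limma adjusted p = 0.894). In both genes F98902 replicate 1 and Cm489 replicate 2 were the brighter arrays of their lines, and the lines overlapped. This order of arrays was found in 10 of the 14 related genes, against 32.4% of all tested probe sets. Among the 10 were GPC1, gpc2, gpc3, gpc4 and mdh5, genes of cytosolic enzymes. Some of the shifts were small, such as -0.45 in F98902 and 0.18 in Cm489 for gpc2.

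The remaining related genes act mainly outside the Calvin cycle. The cytosolic glyceraldehyde-phosphate dehydrogenase genes GPC1, gpc2, gpc3 and gpc4 differed by 0.22, 0.18, 1.12 and 1.12. The aldolase gene ald1 differed by 0.20, with both F98902 arrays the higher, and the cytosolic malate dehydrogenase gene mdh5 by 0.67. For gpc3 other probe sets disagreed with the brightest one: 1 of them had 8.88 and 6.63 in F98902, against 8.05 and 9.69 in Cm489.

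**Figure D4:**
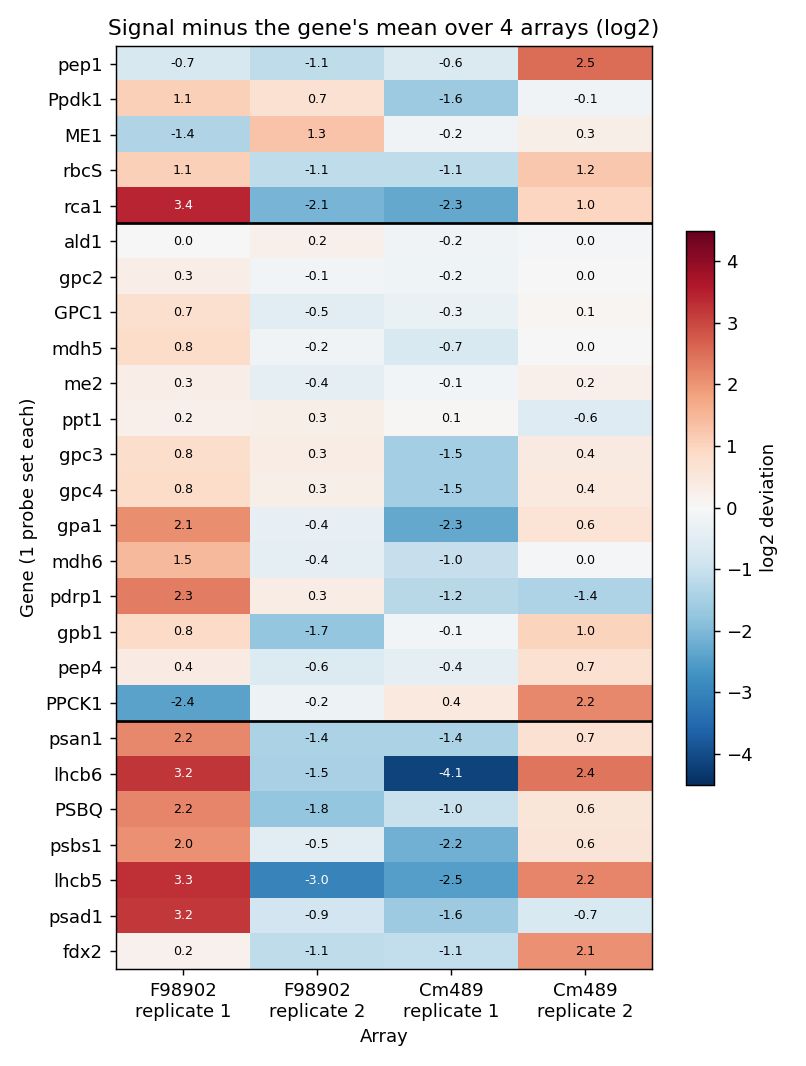
Colours and printed numbers give each gene's log2 signal minus its own mean over the 4 arrays (columns, F98902 left of Cm489), for the 5 member genes (top block), 14 related carbon metabolism genes (middle block) and 7 light harvesting and photosystem genes (bottom block), 1 probe set a gene. rca1 and most light harvesting genes are red on F98902 replicate 1 and blue on F98902 replicate 2 and Cm489 replicate 1, whereas Ppdk1 and pdrp1 are red on both F98902 arrays.

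Markers of green and of lignified tissue moved with rbcS and rca1 between arrays, and their part in the results was not tested. The lists were chosen with earlier results of these data known. Of 7 light harvesting and photosystem genes 6 were tested and 0 passed. All 6 were brighter on F98902 replicate 1 and Cm489 replicate 2, an order found in 32.4% of all tested probe sets. Their summed signal, on the log2 scale, was 15.41 and 11.51 in F98902, against 11.14 and 14.18 in Cm489. The antenna gene lhcb6 (LOC542321) had 13.62 and 8.94 in F98902, against 6.26 and 12.82 in Cm489. The 4 secondary wall genes, markers of lignified tissue, shared the order of arrays, with summed signals of 14.93 and 12.69 in F98902, against 12.25 and 15.46 in Cm489. All 4 were tested and 0 passed. Among kernel storage genes 9 of 13, among pollen and tassel genes 5 of 8 and among root genes 2 of 4 were under 4 on all 4 arrays, and of the 5 photorespiration and chlorophyll genes 2 were.

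In those last lists the array order of rbcS and rca1 was found in 2 of 3 tested kernel genes (gz27 and bt2), 0 of 3 tested pollen and tassel genes, 0 of 1 tested root gene and, of the photorespiration and chlorophyll list, 1 of 3 tested genes (oy1). The tested genes of another order were LOC541815 in the kernel list, TUA1, abp1 and MST1 in the pollen and tassel list, and mir2 in the root list. In the photorespiration and chlorophyll list they were gdh1 and por1. LOC541815 had 7.58 and 10.96 in F98902, against 9.33 and 8.64 in Cm489. The values of mir2 were 8.35 and 11.15 in F98902, against 10.18 and 9.12 in Cm489. Those of gdh1 were 9.14 and 10.11 in F98902, against 11.75 and 11.67 in Cm489. The sums ran from 9.14 to 11.07 in F98902 and from 9.73 to 10.28 in Cm489 for the kernel list, from 12.46 to 13.22 and from 11.68 to 11.91 for the pollen list in the same lines, and from 8.41 to 11.15 and from 9.77 to 10.20 for the root list. For photorespiration and chlorophyll genes they ran from 10.80 to 11.06 in F98902 and from 11.99 to 12.16 in Cm489. Single genes could move more than the sum of their list. In the pollen list MST1 had 2.83 and 12.06 in F98902, against 9.60 and 3.48 in Cm489. That is the reverse of the array order of rbcS and rca1. Some of these genes matched by symbol alone, such as por1, also named porin1, and LOC541815, also named Hb. In the pollen list the symbol abp1 is shared by LOC542232, which was tested, and LOC542430, which was under 4 on every array. The place of LOC542232 there rests on that symbol. The place of gdh1 in its list likewise rests on its symbol.

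The 5' minus 3' signals of control transcripts, read as a sign of RNA integrity, differed between the arrays of a line as well. The direction was not the same for every control. The 5' minus 3' log2 signal of the GAPDH control was -2.02 and -3.65 in F98902, against -4.10 and -3.27 in Cm489, and that of cyclophilin was -0.83 and -1.65 in F98902, against -1.61 and -1.02 in Cm489. Both controls were higher on F98902 replicate 1 and Cm489 replicate 2, the brighter arrays for rbcS and rca1. EF1-alpha, at -1.88 and -2.97 in F98902, against -3.42 and -4.44 in Cm489, was instead higher on both F98902 arrays, as Ppdk1 was. Ubiquitin, at -1.60 and -1.36 in F98902, against -1.60 and -1.55 in Cm489, showed neither order. Whether RNA integrity itself differed between the arrays, and its part in these results, was not tested.

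The genes with the most similar profile were sought for each member among 976 tested probe sets with 1 gene name, less those of the members. Likeness was the root mean square distance between values centred over the 4 arrays, a description of 4 points with no test. For rbcS the nearest was LOC541988 (distance 0.06), followed by BM1, a cinnamyl alcohol dehydrogenase gene of lignin synthesis (0.13), and sat2 (0.13). BM1 had 13.77 and 11.41 in F98902, against 11.27 and 13.91 in Cm489. For rca1 they were LOC541692 (0.43) and the antenna genes Lhcb5-2 (0.48) and lhcb6 (0.50).

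For Ppdk1 they were pgr5 (0.34), LOC542088 (0.36) and gpc3 (0.36). The gene pgr5, named for a protein of cyclic electron flow, had 7.81 and 7.36 in F98902, against 5.36 and 7.37 in Cm489. For ME1 they were aoc1 (0.38), opr1 (0.39) and LOC541713 (0.41), of which aoc1 encodes allene oxide cyclase and opr1 an oxophytodienoate reductase. The gene opr1 had 9.17 and 11.84 in F98902, against 11.22 and 11.49 in Cm489. For pep1, whose profile is 1 array above the floor, they were the aquaporin gene pip2b (0.32), KIN6 (0.34) and GST38 (0.34), all highest on Cm489 replicate 2.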

How the data were processed

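Per the submitters' processing notes the deposited table was made with GCRMA; version, settings and genome build: not given in the sources used here. Deposited values were taken as log2 from their range, 1.18 to 15.28; array medians ran from 7.00 to 7.12. The members and the gene lists were chosen with earlier results of these data known.

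Of 17734 probe sets 113 controls were left out. GEO's platform annotation gave 1452 probe sets 1 gene, of which 1377 matched RefSeq (Zm-B73-REFERENCE-NAM-5.0) by Entrez number; 16168 were unnamed here. List members matched by symbol or synonym; 1 probe set a gene, the brightest, was used. All other carbon fixation genes and each member's 3 nearest genes were named by rule.

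The fit was limma 3.58.1 in R 4.3.3 (lmFit, eBayes, two-sided, Benjamini-Hochberg over 11242 probe sets, threshold 0.05, no replicate block), tested on simulated data. Equal replicate numbers were not read as pairing samples. The number of arrays limits the precision. Alternatives concerned the filter, prior, moderation, scaling, floor, block and left-out arrays. No sequences or coordinates were used.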

Additional observations from a re-analysis of the deposited data

How the results depend on the processing

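None of the 7 tested member probe sets, and none of the 14 related genes, passed under any alternative run. The count over all probe sets, 200 (105 higher and 95 lower in F98902), was 79 (42 and 37) without a filter, 8 (4 and 4) with a robust intensity-dependent prior, 9 (3 and 6) without variance moderation and 115 (53 and 62) with values under 4 raised to 4, and 0 to 0 with 1 array left out. It was 0 in the fit with a replicate block, and with the crossed pairing, chosen after seeing the data, 284. Within-line differences of the lines correlated at -0.558 across probe sets, and the labels name no pairing. The block changed no call of a member, and adjusted p of Ppdk1 set 3 ran from 0.123 (crossed pairing) to 0.719.

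Of 93 alternative values of single probe sets 86 kept their direction and 7 turned, all 7 with 1 array left out. The filter, prior, moderation and block settings cannot change a difference, so only scaling, floor and left-out arrays could turn one. The 86 therefore do not measure how stable the directions are. With 1 array left out the ranges were -1.39 to 1.24 for ME1, -1.26 to 1.10 for rbcS, -1.42 to 4.12 for rca1 and -0.0822 to 0.53 for Ppdk1 set 4. The mesophyll minus bundle sheath difference of -0.44 was 1.18 with all member probe sets that passed the filter, which leaves out pep1, 1.37 without pep1, -2.26 without Ppdk1 and 0.0326 without rca1, and -1.10 to 0.21 with 1 array left out. The number of member probe sets with the arrays of the lines apart, chosen as a result after seeing the data, was 3, and 4 to 6 with 1 array left out, where fewer arrays have to be apart. Signal under or near 4 limits pep1 and rca1. The cause of these changes was otherwise not tested.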
